A study of Mus musculus with 23 samples.

Results

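The antioxidant response driven by the transcription factor NRF2 was followed through 9 genes, picked by symbol from the 27207 genes of the count table: Nfe2l2, which encodes NRF2 itself, and 8 widely used targets, Slc7a11, Gclc, Gclm, Gsr, Txnrd1, Srxn1, Nqo1 and Hmox1. All 9 were found, all had at least 6 counts in each of the 23 libraries, and all 9 passed the filter on low counts that left 11144 genes for testing. Their levels did not move as a block. In extending collagen organoids of day 7, 6 of the 9 were higher than in day 13 organoids of the same batch. These were Hmox1, Gclm, Txnrd1, Srxn1, Slc7a11 and Gsr, where 28.1% of all tested genes were higher, and Gclc was lower, as were 27.1%. KC organoids of day 13 from a second batch overlapped with day 7 for Hmox1 and Slc7a11. In organoids of the KPC line, 4 (Nfe2l2, Nqo1, Gclc and Slc7a11) were lower than in those of the KC line (10.4% of all tested genes were lower and 9.58% higher). In Matrigel 3 (Nqo1, Gclm and Srxn1) were lower than in day 13 collagen organoids of the same batch (6.29% of all tested genes were lower and 6.62% higher). In 2D culture 7 were lower than in day 7 collagen organoids (24.8% of all tested genes), among them Nqo1.

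NRF2 is a basic leucine zipper factor that is held at a low level by KEAP1, an adaptor that presents it to the CUL3 ubiquitin ligase for degradation. When electrophiles or oxidants modify KEAP1, NRF2 accumulates, pairs with a small MAF protein and binds antioxidant response elements near genes for glutathione synthesis, thioredoxin recycling and quinone detoxification. The protein is thus regulated largely after translation, so that the transcript of Nfe2l2 is not a measure of NRF2 activity.

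Bulk 3' RNA sequencing with unique molecular identifiers (UMIs, so that a count stands for a captured RNA molecule) covered 23 libraries of mouse pancreatic ductal adenocarcinoma (PDAC) cells, which form branching organoids from single cells in floating collagen I gels. The KC cells came from a mouse model with Ptf1a Cre/+ and were cultured in 2D on plastic (n = 6), in growth factor-reduced Matrigel for 13 days (n = 3), or in collagen for 7 days (n = 3, the extension phase) or 13 days (n = 5, the lumen formation phase). A second batch, named so in the sample labels, held KC collagen organoids of day 13 (n = 3) and collagen organoids of day 13 of KPC cells, from a mouse model with Pdx1 Cre/+ (n = 3). Each genotype was 1 primary line, so that genotype and line cannot be told apart, and the Cre is active in the pancreatic epithelium. A collagenase digest preceded the lysis of organoids but not that of 2D cells, so that dimension and digestion cannot be told apart either. The labels number the replicates without saying whether they were separate cultures. The study counts its day 13 Matrigel (n = 3) and collagen (n = 5) organoids and its day 7 organoids (n = 3) as independent or individual experiments. The p-values measure the spread between these libraries, which may be technical for the 2D and second-batch libraries.

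The letters of the canonical antioxidant response element, TGACNNNGC, were looked for on both strands of 300-base promoter windows (RefSeq, GRCm38.p6, 250 bases before to 50 after a start). Such windows were given for 6 of the 9 genes, 8 windows in all. Hmox1, Gclc and Gsr had none in the table. A match was found in windows of Nfe2l2, Gclm, Txnrd1 and Srxn1, printed here to show where the letters lie at the gene of the factor itself and at 3 of its targets. Capitals mark the match, read 5' to 3' on the minus strand in each case, with 10 bases on either side.
Nfe2l2, chr2:75704885-75704913: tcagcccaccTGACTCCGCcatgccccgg
Gclm, chr3:122245413-122245441: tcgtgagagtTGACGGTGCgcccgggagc
Txnrd1, chr10:82859104-82859132: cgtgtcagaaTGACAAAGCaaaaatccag
Srxn1, chr2:152105542-152105570: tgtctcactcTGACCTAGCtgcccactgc
The matches were centered 236, 130 and 88 bases before the start for Nfe2l2, Gclm and Txnrd1 and 32 bases after it for Srxn1. The same letters are in 4071 of 32851 windows of all genes (12.4%), so that a match is a description and not a bound site. None of the 4 overlapped the AP-1 letters TGANTCA (7.81% of all windows), which the Srxn1 window holds 2 times elsewhere. No match was found in the windows of Nqo1 and Slc7a11 or in the other 2 windows of Txnrd1, which says only that these letters are not there.

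The libraries held 1221451 to 2471058 counts (median 1845921), and levels are given as CPM (counts divided by the scaled library size, times 1e6) with edgeR's TMM scaling. Since a count of 0 allows up to 3 counts, the detection limit was 1.16 to 3.22 CPM. The ductal markers Krt7, Krt8, Krt18, Krt19, Cdh1 and Epcam summed to 7016 to 13882 CPM across libraries. Of the marker lists of other cells, endothelial and erythroid genes did not exceed 3 counts in any library, 1 of the 4 leukocyte genes in the table, 1 of the 3 acinar genes in the table and 5 of 6 fibroblast genes did, with fibroblast sums of 13.2 to 89.1 CPM and acinar sums of 2.98 to 20.4 CPM. The leukocyte sum, which was mostly Cd68 while Ptprc did not exceed 3 counts, was 30.7 to 36.6 CPM in Matrigel, 12.1 to 22.1 CPM in first-batch collagen of day 13, 3.41 to 5.88 CPM at day 7 and 4.57 to 18.3 CPM in 2D cells. In the second batch it was 18.7 to 21.2 CPM in KC and 5.99 to 11.6 CPM in KPC organoids. It thus moved with the comparisons of matrix, day and line without overlap, and its part in the values of the 9 genes was not tested. The first 3 of the 2D libraries stood apart from the other 3, with TMM factors of 0.738 to 0.772 against 1.04 to 1.06 and 4.99 to 5.76% against 2.51 to 3.01% of counts from mitochondrial genes. Results for 2D cells are therefore given with both sets where the difference matters.

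**Figure D1:**
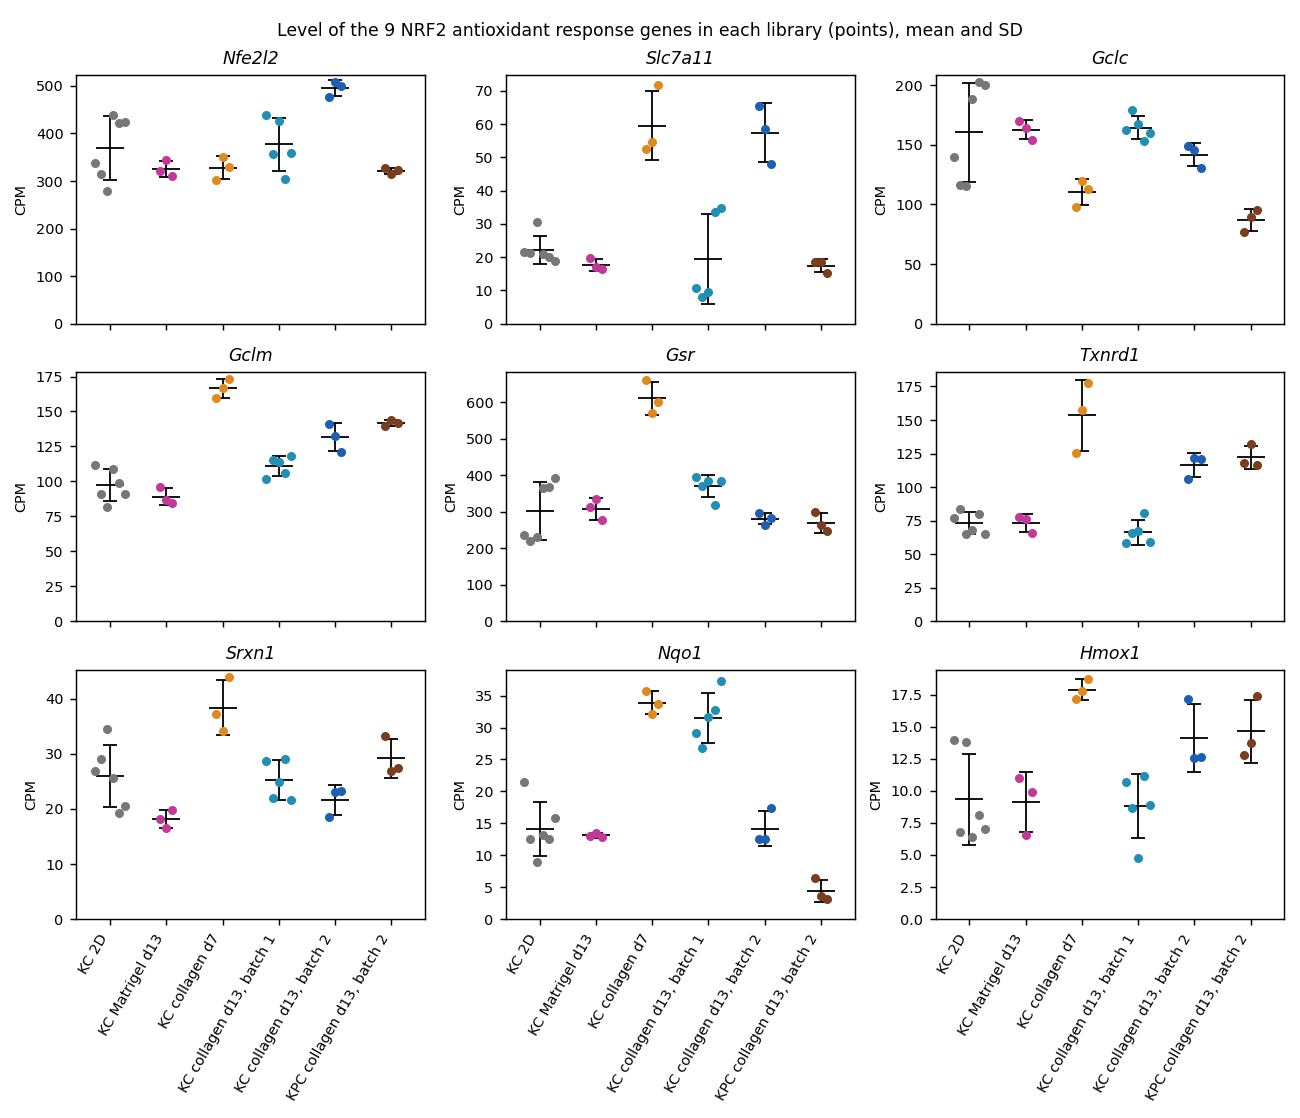
Level of each gene in CPM (vertical axes, from 0) in the 23 libraries, grouped by condition; points are libraries, and the bars show the mean and SD. Day 7 collagen organoids hold the highest mean of all members except Nfe2l2 and Gclc, and KPC organoids the lowest mean of Nqo1 at 4.38 CPM.

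Nfe2l2 (ENSMUSG00000015839, GRCm38 chr2:75675513-75704641, minus strand) was the steadiest member, with group means between 321 and 495 CPM. In KC collagen organoids of the second batch it was at 476, 509 and 500.5 CPM, and in the KPC organoids beside them at 326, 315 and 323 CPM. The KC values were thus all above the KPC values, with a log2 fold change of -0.62 ± 0.15 (SE, edgeR adjusted p = 0.00632). Day 13 organoids of the first batch spread from 304 to 439 CPM (439, 358, 426, 304 and 359) and overlapped every other group except the KC organoids of the second batch. Matrigel organoids were at 321, 344 and 311 CPM and day 7 organoids at 303, 351 and 329 CPM, overlapping that spread. The log2 difference between day 7 and day 13 was -0.20 (95% interval -0.49 to 0.08) and that between Matrigel and collagen -0.21 (-0.50 to 0.07), and neither passed the test. In 2D cells the level ran from 278 to 438 CPM with a median of 379.7 CPM, and the first 3 libraries (338, 314 and 278) lay below the other 3 (438, 421 and 425).

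The cofactors and regulators of NRF2 were read from a list of 12 genes, all tested. In Matrigel against collagen and in KPC against KC organoids 0 of the 12 passed the test by edgeR and 0 by DESeq2, and 1 in each, Mafk and Maff, had an unadjusted p under 0.05. Of all tested genes 12.9% and 19.9% passed there by edgeR. Keap1, the sensor, was at 65.7 CPM on average in KPC and 70.5 CPM in KC organoids of the second batch, a log2 difference of -0.10 (95% interval -0.48 to 0.27). Between day 7 and day 13, 1 of the 12, Rbx1 of the ubiquitin ligase, was higher (0.35 ± 0.16, edgeR adjusted p = 0.0731) and 5 were lower at day 7, and by DESeq2 0 were higher and 5 lower. By edgeR 28.1% of all tested genes were higher and 27.1% lower at day 7. Keap1 was lower at day 7, with a log2 fold change of -0.43 ± 0.16 (SE; 53.6 against 72.5 CPM, edgeR adjusted p = 0.0263). Maff and Mafk, small MAF partners of NRF2, were also lower at day 7, by a log2 fold change of -0.93 ± 0.19 and -0.85 ± 0.18 (edgeR adjusted p = 0.000169 and 0.000406). The others lower at day 7 were Gsk3b, a kinase that marks NRF2 for a second route of degradation (-0.46 ± 0.18), and Nfe2l1, a related factor (-0.32 ± 0.15). Cul3, Sqstm1, Bach1, Mafg, Btrc and Dpp3 did not pass at day 7, with log2 differences from -0.40 to 0.25.

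Slc7a11 (ENSMUSG00000027737, chr3:49892526-50443614, minus strand) encodes the cystine-glutamate exchanger of system xc-, which brings in the cystine from which glutathione is made. It had the widest relative range among the 9 after Nqo1. In day 7 collagen organoids it was at 52.5, 54.6 and 71.6 CPM. In day 13 organoids of the first batch it was at 10.7, 8.15, 9.57, 33.6 and 34.7 CPM, so that libraries 4 and 5 lay apart from the other 3, yet still below every day 7 library. The log2 fold change of day 7 over day 13 was 1.63 ± 0.29 (SE, edgeR adjusted p = 3.91e-05), 2.66 against the first 3 libraries and 0.80 against the other 2.
In the second batch KC organoids of day 13 stood at 65.6, 58.6 and 48.0 CPM, above all 5 libraries of the first batch, with a log2 difference of 1.57 ± 0.30 (edgeR adjusted p = 0.000259). That difference between batches was close in size to the 1.63 between day 7 and day 13, and these libraries overlapped with those of day 7. The KPC organoids of that batch were at 18.5, 18.6 and 15.3 CPM, well apart from the KC libraries beside them, and the log2 fold change was -1.72 ± 0.36 (edgeR adjusted p = 0.00138). Against all 8 KC libraries of both batches, which share the KC cells and the day, the value was -0.90 and did not pass (edgeR adjusted p = 0.182).
Matrigel organoids were at 19.7, 17.0 and 16.3 CPM, between the low and the high day 13 collagen libraries. The comparison of Matrigel with collagen therefore turned on those libraries: -0.11 with all 5 (95% interval -0.81 to 0.58), 0.93 against the first 3 (edgeR adjusted p = 0.00877) and -0.94 against the other 2 (edgeR adjusted p = 0.00429). 2D cells were at 18.8 to 30.6 CPM with a median of 21.2 CPM, below every day 7 library (log2 fold change -1.45 ± 0.28, edgeR adjusted p = 0.000231). Against day 13 they too changed sign, with 0.18 for all 5 libraries, 1.2 against the first 3 and -0.65 against the other 2.
Slc3a2, the heavy chain that SLC7A11 needs at the membrane, was also higher at day 7 than at day 13 (320.5 against 192 CPM, log2 fold change 0.74 ± 0.13, edgeR adjusted p = 3.29e-05) and lower in KPC than in KC organoids (256 against 428 CPM, -0.74 ± 0.15, edgeR adjusted p = 0.00079). It was the only 1 higher at day 7 of 6 tested genes of glutathione synthesis and recycling outside the 9, and 3 were lower (28.1% and 27.1% of all tested genes). In KPC organoids 1 of these 6 was higher and 2 were lower (9.58% and 10.4%).

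Gclc and Gclm encode the catalytic and the modifier subunit of glutamate-cysteine ligase, the rate-limiting enzyme of glutathione synthesis. Gclc (ENSMUSG00000032350, chr9:77754535-77794485, plus strand) was at 98.1, 119.7 and 113 CPM at day 7 and at 162, 179, 167, 153 and 160.2 CPM at day 13 of the first batch. These groups did not overlap, and the log2 fold change was -0.57 ± 0.16 (SE, edgeR adjusted p = 0.00359). Gclm (ENSMUSG00000028124, chr3:122245557-122270732, plus strand) went the other way, with 159.8, 167 and 173 CPM at day 7 and 102, 115, 114, 106 and 118 CPM at day 13. Every day 7 library lay above every day 13 library, with a log2 fold change of 0.59 ± 0.10 (edgeR adjusted p = 2.9e-05).
In KPC organoids Gclc was at 76.7, 89.2 and 95 CPM, the lowest values of any group, against 149, 146 and 131 CPM in KC organoids of the same batch (log2 fold change -0.70 ± 0.18, edgeR adjusted p = 0.00803). Gclm, by contrast, was at 139.9, 144 and 141 CPM in KPC and at 141, 132 and 121 CPM in KC organoids, values that overlapped, with a log2 difference of 0.11 (95% interval -0.13 to 0.35).
As a result the ratio of Gclm to Gclc counts differed between groups, a comparison chosen after the values were seen and given without a test. At day 7 it was 1.63, 1.39 and 1.54, and in KPC organoids 1.82, 1.62 and 1.49. In KC organoids of day 13 it was 0.626 to 0.738 in the first batch and 0.909 to 0.947 in the second. Matrigel organoids (0.528 to 0.565) and 2D cells (0.453 to 0.8) had ratios below 1 too. In 2D cells it was 0.709 to 0.8 in the first 3 libraries and 0.453 to 0.578 in the other 3. All 6 libraries of day 7 and KPC organoids were thus above 1 and all the other libraries below it. The ratio uses both genes of the same library and does not depend on scaling, but 3' counts of different genes are not comparable as levels, so that only differences between groups can be read from it.
Between 2D cells and day 7 organoids Gclc was higher in 2D, with overlap (log2 fold change 0.56 ± 0.15, edgeR adjusted p = 0.00493). It did not pass there with the first 3 of the 2D libraries alone or with library size scaling. Gclm was lower in 2D cells, without overlap (-0.78 ± 0.10, edgeR adjusted p = 1.05e-06). The differences between Matrigel and collagen were smaller for both genes. Matrigel organoids had 170.0, 164 and 154 CPM of Gclc, overlapping with collagen (log2 difference -0.01, 95% interval -0.33 to 0.30), and 96.0, 86.8 and 84.5 CPM of Gclm, below every collagen library (-0.31 ± 0.11, edgeR adjusted p = 0.0623). In 2D cells Gclc ran from 115 to 203 CPM with a median of 164 CPM, split into 115 to 139.6 CPM in the first 3 libraries and 188 to 203 CPM in the other 3. Gclm in 2D cells did not split this way and was at 81.8 to 112 CPM with a median of 95 CPM. Glutathione synthetase, Gss, which completes the tripeptide, was lower in Matrigel than in collagen organoids (111 against 171 CPM, -0.63 ± 0.13, edgeR adjusted p = 0.00139) and lower at day 7 (132 CPM, -0.38 ± 0.12, edgeR adjusted p = 0.013).

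**Figure D2:**
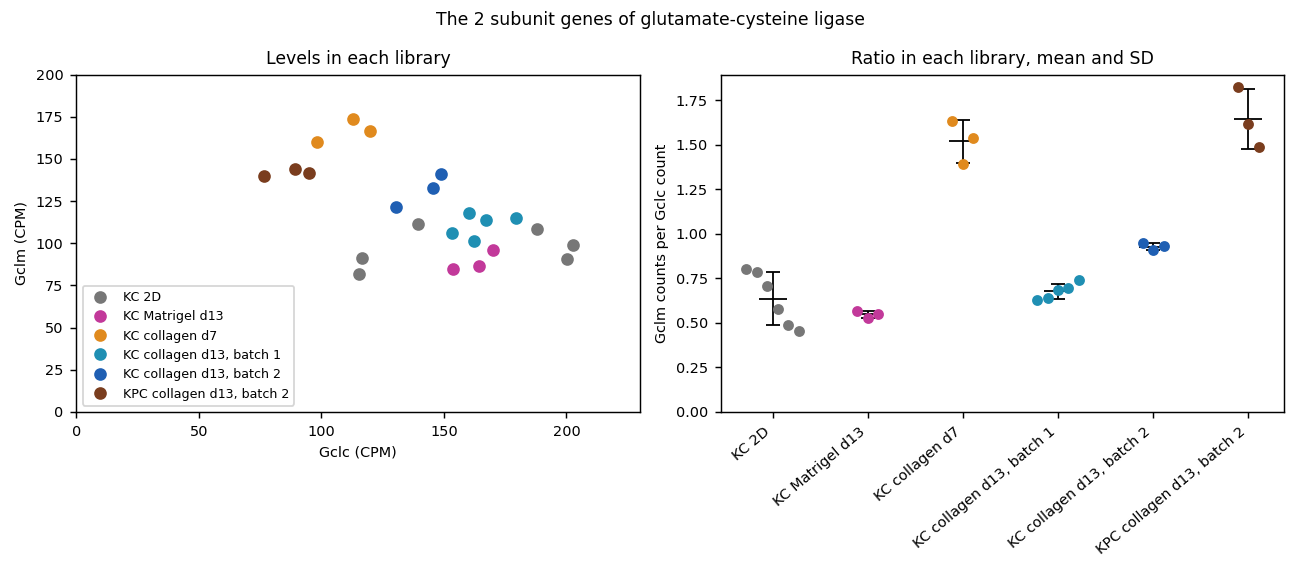
Left, Gclm against Gclc in CPM, 1 point for each of the 23 libraries, colored by condition; right, Gclm counts for each Gclc count, with the mean and SD of each condition. The ratio is 1.39 to 1.63 at day 7 and 1.49 to 1.82 in KPC organoids, and below 1 in each of the other libraries.

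Gsr (ENSMUSG00000031584, chr8:33652523-33698163, plus strand) encodes glutathione reductase, which returns oxidized glutathione to its reduced form with NADPH. It was at 660.0, 571 and 601 CPM at day 7 and at 396, 369.7, 384, 319 and 385 CPM at day 13 of the first batch. The day 7 values were the highest of any library, and the log2 fold change was 0.72 ± 0.16 (SE, edgeR adjusted p = 0.000429). KC organoids of the second batch were at 297, 264 and 283 CPM, KPC organoids at 298, 264 and 246 CPM, and these 2 groups overlapped (log2 difference -0.06, 95% interval -0.44 to 0.31). Matrigel organoids were at 312, 336 and 276 CPM and overlapped with collagen. In 2D cells Gsr split as Gclc and Nfe2l2 did, with 221 to 236 CPM in the first 3 libraries and 364 to 392 CPM in the other 3 (median of all 6, 300.1 CPM). Against day 13 collagen it was lower with all 6 libraries (-0.29 ± 0.13, edgeR adjusted p = 0.0851), but with the last 3 alone the value was -0.02 (edgeR adjusted p = 0.916).

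Txnrd1 (ENSMUSG00000020250, chr10:82833951-82897712, plus strand) encodes the cytosolic selenoenzyme that reduces thioredoxin. It was at 126, 157 and 177 CPM at day 7 and at 58.4, 65.7, 67.0, 81.1 and 59.4 CPM at day 13 of the first batch. All day 7 libraries lay above all those of day 13, and the log2 fold change of 1.21 ± 0.12 had the smallest adjusted p of any member in any comparison (edgeR adjusted p = 1.36e-08). Matrigel organoids, at 77.9, 76.3 and 65.8 CPM, and 2D cells, at 65.1 to 83.4 CPM with a median of 72.7 CPM, overlapped with day 13 collagen. In the second batch KC organoids were at 106, 122 and 121 CPM and KPC organoids at 118, 132 and 117 CPM, which overlapped (log2 difference 0.07, 95% interval -0.22 to 0.37). Against all 8 KC libraries of both batches Txnrd1 passed as higher in KPC organoids (0.53, edgeR adjusted p = 0.0514). The difference between the KC batches was 0.81 ± 0.13 (edgeR adjusted p = 3.08e-05).

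Srxn1 (ENSMUSG00000032802, chr2:152105516-152111376, plus strand) encodes sulfiredoxin, which repairs overoxidized peroxiredoxins. Its day 7 libraries, at 37.3, 34.1 and 43.9 CPM, were above those of day 13 of the first batch, at 28.7, 22.1, 24.9, 29.1 and 21.5 CPM (log2 fold change 0.60 ± 0.16, SE, edgeR adjusted p = 0.00241). Matrigel organoids were the lowest group at 18.1, 16.6 and 19.8 CPM, below every day 13 collagen library of the first batch, with -0.49 ± 0.17 (edgeR adjusted p = 0.0836). That call was lost without any 1 of the 3 Matrigel libraries or of collagen libraries 1, 3 and 4, and that of Gclm without Matrigel library 2 or 3 or collagen library 2, 3 or 5. KPC organoids, at 33.2, 26.9 and 27.4 CPM, did not overlap with KC organoids of the same batch, at 18.5, 23 and 23.3 CPM, but the difference of 0.43 (95% interval 0.02 to 0.84) did not pass (edgeR adjusted p = 0.165). In 2D cells Srxn1 was at 19.2 to 34.5 CPM with a median of 26.2 CPM. The first 3 libraries (26.8, 29.1 and 34.5) lay above the other 3 (25.6, 19.2 and 20.6), but by library size alone they overlapped.

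The other thioredoxin and peroxiredoxin genes were read from a list of 11, all tested, of which 5 were higher and 2 lower at day 7, where 28.1% of all tested genes were higher and 27.1% lower. Txn1, thioredoxin itself, was at 3424 CPM at day 7 and 1716 CPM at day 13 (log2 fold change 1.0 ± 0.13, edgeR adjusted p = 6.8e-07). Txnip, which binds and inhibits thioredoxin and is induced by glucose, was at 33.6 ± 0.265 CPM at day 7 (SD, n = 3) against 228 ± 69.2 CPM at day 13 (SD, n = 5), a log2 fold change of -2.76 ± 0.23 (edgeR adjusted p = 5.59e-10). Txnip was also lower in KPC than in KC organoids (-1.11 ± 0.22, edgeR adjusted p = 0.000935).

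Nqo1 (ENSMUSG00000003849, chr8:107388225-107403206, minus strand) encodes a quinone reductase that uses NADPH or NADH and is a standard readout of NRF2. Unlike the glutathione and thioredoxin members, it did not pass the test between day 7 and day 13. Over the 23 libraries the member that followed it most closely was Gsr (Pearson r of log2 CPM = 0.66, and 0.19 within conditions, after each group mean was taken out). Day 7 organoids were at 35.8, 32.2 and 33.7 CPM and day 13 organoids of the first batch at 29.2, 26.9, 31.6, 32.7 and 37.3 CPM, which overlapped (log2 difference 0.10, 95% interval -0.23 to 0.43). Matrigel organoids were at 13.0, 13.5 and 12.8 CPM, below every collagen library of that batch, with a log2 fold change of -1.26 ± 0.19 (SE, edgeR adjusted p = 3.91e-05). 2D cells were at 8.87 to 21.5 CPM with a median of 12.9 CPM and also lay below all those collagen libraries, with -1.17 ± 0.16 against day 13 and -1.28 ± 0.17 against day 7 (edgeR adjusted p = 2.35e-06 and 2.79e-06).
KC collagen organoids of the second batch, however, were at 12.6, 12.6 and 17.3 CPM, inside the range of 2D cells, and differed from the first batch by -1.15 ± 0.20 (edgeR adjusted p = 8.08e-05). A difference of the size found between matrices was thus also found between batches of the same line, matrix and day. The Matrigel, 2D and first collagen libraries were all of the first batch. KPC organoids had 10, 6 and 6 counts (6.39, 3.59 and 3.17 CPM), the lowest of any library, against 19, 18 and 26 counts in KC organoids of the same batch (-1.70 ± 0.30, edgeR adjusted p = 0.000234).

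Hmox1 (ENSMUSG00000005413, chr8:75093621-75100589, plus strand) encodes heme oxygenase 1, which breaks heme down to biliverdin, iron and carbon monoxide and is repressed by BACH1. It had few counts, 7 to 46 a library. Day 7 organoids were at 17.2, 17.8 and 18.8 CPM and day 13 organoids of the first batch at 10.7, 8.63, 4.79, 11.2 and 8.93 CPM. They did not overlap, and the log2 fold change was 1.01 ± 0.24 (SE, edgeR adjusted p = 0.00101). Matrigel organoids (11, 6.54 and 9.91 CPM) and 2D cells (6.39 to 14 CPM, median 7.61 CPM) overlapped with day 13 collagen. The second batch was at 17.2, 12.6 and 12.7 CPM in KC and 12.8, 13.8 and 17.4 CPM in KPC organoids, which overlapped (log2 difference 0.06, 95% interval -0.53 to 0.65).

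Across the 9 genes the order of group means differed. Day 7 collagen organoids were highest for 7 members, the first-batch day 13 organoids for Gclc and the second-batch KC organoids for Nfe2l2. The day 7 values did not overlap those of the next group for Gclm, Gsr and Srxn1, but did for Nqo1 and Slc7a11 (day 13 KC organoids) and for Hmox1 and Txnrd1 (KPC organoids). For Srxn1 they overlapped with 2D cells, a group further down by mean (34.1 to 43.9 CPM at day 7, up to 34.5 CPM in 2D). The ratio of the highest to the lowest group mean ran from 1.54 for Nfe2l2 to 7.73 for Nqo1, with 3.41 for Slc7a11 and 1.87 to 2.31 for the others. KPC organoids had the lowest mean of Nfe2l2, Nqo1, Gclc, Slc7a11 and Gsr, although for Nfe2l2, Slc7a11 and Gsr they overlapped with the group next above. In bulk RNA, fewer cells of a type and less RNA per cell cannot be told apart.

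**Figure D3:**
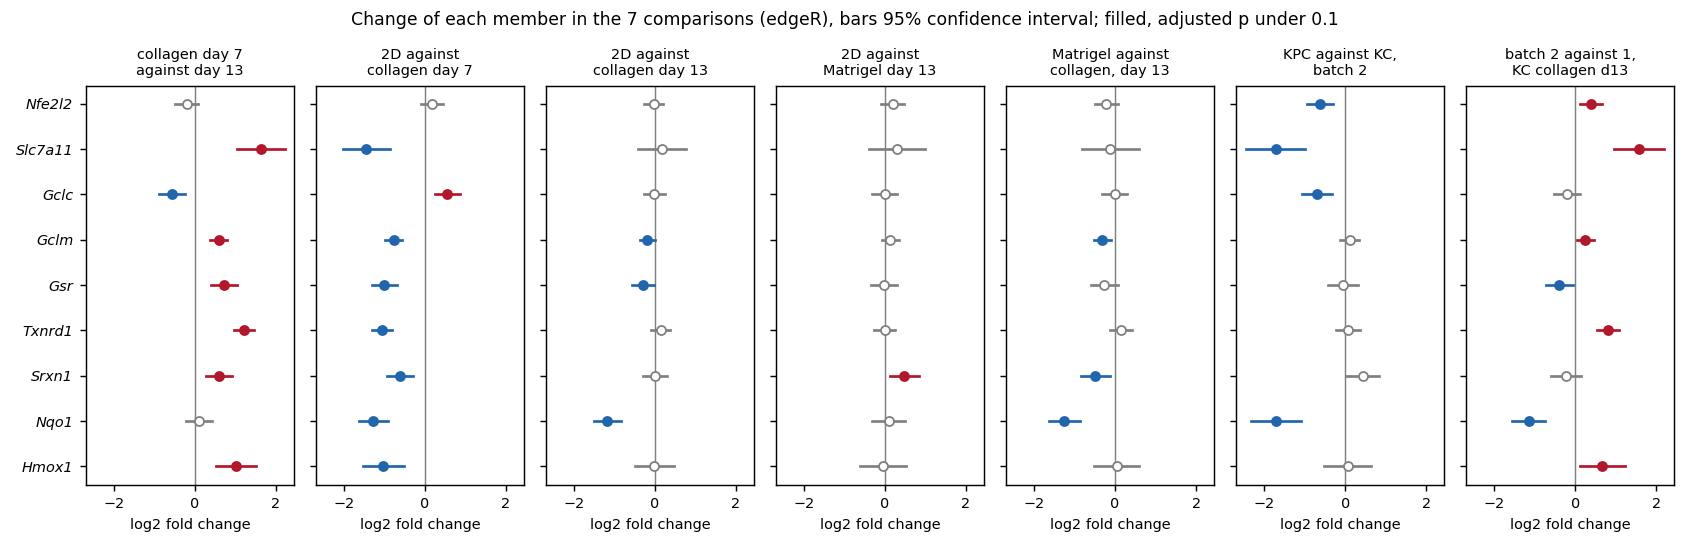
Log2 fold change (horizontal axes, edgeR) of each member in the 7 comparisons, with 95% confidence intervals; filled red and blue points passed an adjusted p of 0.1 and are higher or lower in the first group. Filled points are most frequent for 2D cells against day 7 (8 of 9) and least for 2D cells against Matrigel (1 of 9).

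The counts of members called are best read beside the share of all tested genes called by the same rule. Between day 7 and day 13 in collagen of the first batch 7 of 9 members passed (6 higher, 1 lower), where 55.1% of all tested genes did. The median log2 fold change of the members was 0.60 against 0.01 for all genes. Between 2D cells and day 7 organoids 8 of 9 passed (Gclc higher, 7 lower; 51.2% of all genes), with a median of -1.01 against 0.02 for all genes. Those 2 comparisons share the day 7 libraries. With the last 3 of the 2D libraries alone 9 members and 5160 of all genes passed, and with the first 3 alone 6 members and 6370 genes did.
Between Matrigel and collagen 3 of 9 passed, Nqo1, Gclm and Srxn1, all lower in Matrigel (12.9% of all genes). Between KPC and KC organoids 4 of 9 passed, all lower in KPC (19.9% of all genes), and the median over the members was -0.06 against 0.01 over all genes. Scaled by library size alone, Nfe2l2 and Gclc had log2 fold changes of -0.50 and -0.58 and no longer passed there (edgeR adjusted p = 0.159 and 0.16), and Srxn1 did, as higher (0.55). That scaling moved the median of all genes by 0.12. Against all 8 KC libraries of both batches 3 members passed as lower in KPC and 1, Txnrd1, as higher (1532 and 1410 of all genes).
Between 2D cells and day 13 organoids 3 of 9 passed, Nqo1, Gclm and Gsr, all lower in 2D (49.6% of all genes). Gclm lost the call without 2D library 2, 3 or 6 or collagen library 2, 3 or 5, and Gsr without 2D library 1, 2 or 3 or collagen library 1, 3 or 5, so that the count was 1 to 3 without a library. Between 2D cells and Matrigel organoids Srxn1 alone passed, as higher (0.48 ± 0.18, edgeR adjusted p = 0.0368). Of all genes 42.0% passed there, 21.9% higher and 20.1% lower. The comparison with Matrigel depended on which 2D libraries were used. With the last 3, Nfe2l2, Gclc and Gsr were higher in 2D. With the first 3, Gclc and Gsr were lower and Srxn1 higher. Between the 2 batches of KC collagen organoids of day 13, 7 of 9 passed, 5 higher and 2 lower in the second batch (37.3% of all genes). That count was 4 at a threshold of 0.05 or with library size scaling, and 4 to 7 without a library.

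The genes of the same pathway outside the 9 were read from lists compiled by function. Their counts stand beside shares of 28.1% higher and 27.1% lower among all tested genes at day 7, and of 9.58% higher and 10.4% lower in KPC organoids. Among those for NADPH supply, 3 of 6 were higher and 2 lower at day 7. Tkt, transketolase, was higher (580 against 394 CPM, log2 fold change 0.56 ± 0.18), and Idh1 and Me1, which make NADPH in the cytosol, were lower (-1.20 ± 0.14 and -0.92 ± 0.13, edgeR adjusted p = 7.35e-08 and 3.36e-06). Me1 was also lower in KPC than in KC organoids (185 against 313 CPM, -0.75 ± 0.15).
Of the quinone, carbonyl and conjugation enzymes, 4 of 11 tested were higher and 5 lower at day 7. Ptgr1, prostaglandin reductase 1, was at 165 CPM at day 7 and 47.5 CPM at day 13 (1.79 ± 0.13, edgeR adjusted p = 2.68e-11), whereas the carbonyl reductases Cbr1 and Cbr3 were lower (-2.25 ± 0.19 and -1.37 ± 0.15). In KPC organoids 2 of the 11 were lower than in KC organoids, Ephx1, a microsomal epoxide hydrolase (-1.23 ± 0.22), and Cbr3 (-0.92 ± 0.15).
Of the heme and iron genes 4 of 8 were higher and 2 lower at day 7, among them Fth1, ferritin heavy chain (4526 against 2608 CPM, 0.80 ± 0.12), and Tfrc, the transferrin receptor (133 against 79.8 CPM, 0.74 ± 0.17), as higher. Slc40a1, the iron exporter ferroportin, was lower (-2.24 ± 0.30). Fth1 has processed copies in the genome, and its counts are uncertain where reads were shared. Of the glutathione transferases, 2 of 13 tested were higher and 7 lower at day 7, Gsta4 among the latter (1680 against 4215 CPM, -1.33 ± 0.13, edgeR adjusted p = 4.04e-09). In KPC organoids 4 of the 13 were lower and 0 higher (6 lower and 0 higher at an unadjusted p under 0.05, and likewise by DESeq2).
Slc7a11 is also a target of ATF4, the factor of the integrated stress response. Of the 12 other tested genes on a list of ATF4 and its targets, 5 were higher and 3 lower at day 7. The serine synthesis genes Phgdh and Psat1 (2.48 ± 0.16 and 1.61 ± 0.14) and the amino acid transporter Slc7a5 (2.34 ± 0.16) were higher, while Vldlr was lower (-1.86 ± 0.15). In KPC organoids 1 of the 12 was higher and 5 lower, with Atf3 (-1.62 ± 0.29) and Asns, asparagine synthetase (-0.61 ± 0.17), among the lower. Efflux pumps (2 higher and 2 lower of 4 tested) and other antioxidant enzymes (1 higher and 2 lower of 4 tested) were mixed at day 7, with catalase, Cat, lower (81.4 against 165 CPM, -1.01 ± 0.12).

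**Figure D4:**
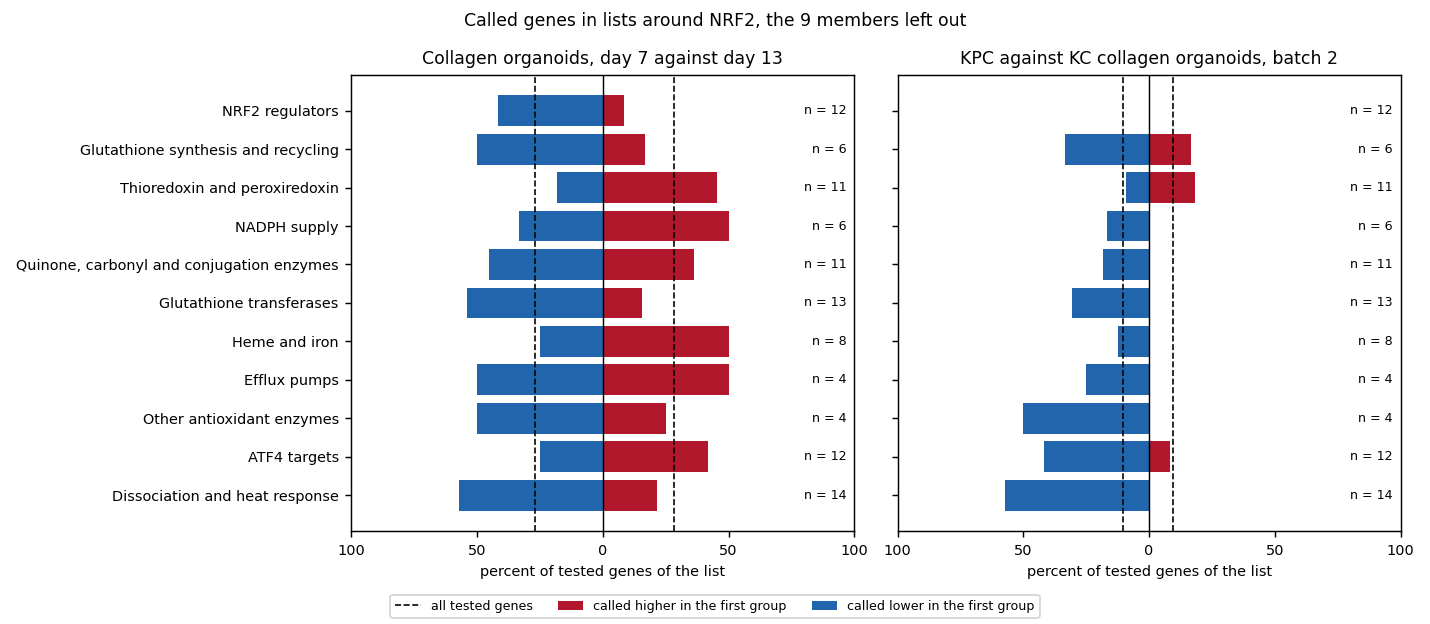
Percent of the tested genes of each list, without the 9 members, called higher (red, right) or lower (blue, left) in the first group of 2 comparisons, with the number tested; dashed lines mark the percent of all tested genes. At day 7 the thioredoxin list holds 5 higher and 2 lower of 11 and the glutathione transferases 2 higher and 7 lower of 13; in KPC organoids 8 of 14 dissociation genes are lower.

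Genes that respond to dissociation and heat, a list of 14, moved with several of these comparisons. Their summed level was 3559 to 4138 CPM in day 13 collagen organoids of the first batch, 2743 to 3518 CPM at day 7, 2181 to 2255 CPM in Matrigel and 1891 to 2496 CPM in 2D cells. It was 4836 to 5434 CPM in KC and 3317 to 3641 CPM in KPC organoids of the second batch. Of the 14, 9 were lower and 2 higher in Matrigel than in collagen, 8 lower and 3 higher at day 7, 8 lower in KPC than in KC, 6 higher in the second than in the first KC batch, 10 lower and 1 higher in 2D cells than in day 7 collagen, and 12 lower and 1 higher in 2D cells than in day 13 collagen. Over all tested genes the shares lower and higher were 6.29% and 6.62% for Matrigel, 27.1% and 28.1% at day 7, 10.4% and 9.58% for KPC, 18.1% and 19.3% between batches, 24.8% and 26.4% for 2D against day 7 and 23.3% and 26.3% for 2D against day 13. The part of these genes in the values of the 9 members was not tested.

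For each member the 3 genes whose log2 CPM followed it most closely over the 23 libraries were listed from 6603 genes with at least 20 CPM on average. These correlations share the libraries and their 6 conditions and are given as a description. Gclc was followed most closely by Ephx1 (Pearson r = 0.92), Sox13 (0.92) and Ppp1r1b (0.91), and Gclm by Tuba4a (0.92), Akr1b8 (0.90) and Syncrip (0.87). The nearest to Txnrd1 were Septin11 (0.93), Fosl1 (0.91) and Il5ra (0.90), and to Gsr Arhgdia (0.93), Actr1a (0.93) and Pfn1 (0.92). For Nqo1 they were Ubxn8 (0.91), Pde12 (0.90) and Zfp503 (0.89). The closest for the remaining members were Atp5d for Nfe2l2 (0.87), Tuba1c for Hmox1 (0.82), Tmem65 for Srxn1 (0.87) and Fxyd5 for Slc7a11 (0.80). Among the members themselves the closest pair over the 23 libraries was Gclm and Txnrd1 (r = 0.83), and within conditions, after each group mean was taken out, that value was 0.20. Gclc and Gclm had r = -0.56 over the libraries and 0.43 within conditions. Nfe2l2, Gclc and Gsr, lower in each of the first 3 2D libraries than in the other 3, had 0.75 to 0.78 with each other within conditions. With TMM scaling Srxn1 and, by a small margin, Slc7a11 split the other way. By library size alone the first 3 and the other 3 overlapped for both genes. Srxn1 was then at 20.5, 22.3 and 25.3 against 26.8, 20.3 and 21.2 CPM, and Slc7a11 at 16.4, 16.4 and 22.4 against 22.0, 21.3 and 19.4 CPM. Within conditions Srxn1 had -0.76 with Gclc, -0.61 with Gsr and -0.51 with Nfe2l2. Slc7a11 had -0.27, -0.24 and -0.51 with the same genes. These correlations used TMM scaling and were not computed by library size alone.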

How the data were processed

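The authors sequenced the 3' ends of cDNA with UMIs and aligned the reads to GRCm38, and the deposited table holds their raw counts per gene (Drop-seq tools, GENCODE M25 gene models), with no normalization. It lists 27207 genes, of which 24507 had a count. Per the labels, the 23 libraries fall into 6 conditions. The further alleles of the lines are not reported here. The 9 members, the pathway lists and the tests were chosen with earlier results of these data known.

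A single edgeR quasi-likelihood model of the 6 conditions (edgeR 4.0.16, R 4.3.3) was fitted to the counts with TMM scaling and filterByExpr, which kept 11144 genes. A gene was called at an adjusted p under 0.1 (Benjamini-Hochberg, all tested genes), the false discovery rate of the study. The study used DESeq2, here an alternative (version 1.42.0). For correlations CPM were put on a log2 scale (prior count 2). Library totals of 1221451 to 2471058 counts set the precision, and the floor of 3 counts covers counting error only. Chi-square per degree of freedom between libraries of a condition was 1.27 or more, so that none was counted as a duplicate.

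The named genes were the 9 members, the NRF2 regulators, up to 4 called genes of at least 20 CPM with the largest change from each other list and comparison, and the 3 genes most like each member. Positions are those of GENCODE M21 (GRCm38), and promoter windows those of RefSeq. Alternatives were DESeq2, median-of-ratios or library size scaling, other filters on low counts, a threshold of 0.05, a model of only the groups compared, the 8 KC day 13 collagen libraries pooled over batches, a replicate block and each library left out. Splits of the 2D and of the first-batch day 13 collagen libraries were added after the data had been seen.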

Additional observations from a re-analysis of the deposited data

Results flagged for a closer look

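With TMM scaling Slc7a11 in the third 2D library, at 30.6 CPM, lay far above the other 5 2D libraries. The next of these was at 21.5 CPM and the lowest at 18.8 CPM. The gap to the next library was 0.775 of the group's range, above Dixon's critical value of 0.625 for 6 samples. It was the only such value among 18 groups of the 9 members with 4 to 10 libraries, and chance gives about 1 in 20. That library had the lowest TMM factor of all, 0.738. By library size alone it was at 22.4 CPM and did not stand apart from 2D libraries 4 and 5, at 22.0 and 21.3 CPM.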

How the results depend on the processing

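Of the alternative values of called results, 524 kept their direction and their side of the threshold, 87 kept the direction only and 0 reversed. Of those of uncalled members, 13 passed the threshold without a change of sign and 35 changed sign. Some of the values that changed sign also passed the threshold. Among these were Slc7a11 in Matrigel against a subset of the collagen libraries (0.93, from -0.11) and, with a subset of the 2D libraries against Matrigel, Gclc and Gsr (0.24 and 0.25). A further 19 member results, never called under any alternative, changed sign in 52 of 356 values and stayed within 0.47 of 0 on the log2 scale. The causes were not tested except where the alternative itself removes libraries or genes.

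The calls between day 7 and day 13 held without each library, and Nfe2l2 passed as lower without day 13 library 4 (-0.27). Those between KPC and KC organoids also held without each library. Between Matrigel and collagen, 3 members were called and 1 with library size scaling, no low count filter, at least 10 counts in every library (where Nqo1 was not tested) or a threshold of 0.05, and 1 to 2 without a library. The genes called there were 1439, and 954 with library size scaling, 952 with at least 10 counts and 901 to 1427 without a library. Between the KC batches 7 members were called, 4 with library size scaling, a threshold of 0.05 or day 13 collagen libraries 4 and 5 only (with 2348 against 4162 genes) and 4 to 7 without a library. Gclm was lost there without first-batch library 1 or second-batch library 1 or 2, Gsr without first-batch library 1 or 5 or any second-batch library, and Hmox1 without first-batch library 3 or second-batch library 1. Between 2D cells and day 13 collagen 3 members were called, 1 at a threshold of 0.05 or in a model of the compared groups alone and 1 to 3 without a library. Gclm was lost there without 2D library 2, 3 or 6 or collagen library 2, 3 or 5, and Gsr without 2D library 1, 2 or 3 or collagen library 1, 3 or 5. Between 2D cells and Matrigel 1 member was called, 0 with library size scaling, no low count filter or the compared groups alone (1 with DESeq2), 3 with either set of 2D libraries and 0 to 1 without a library. Srxn1 was lost there without 2D library 3 or Matrigel library 1 or 2.

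Signs of uncalled values changed as follows. For 2D against day 13 collagen, Slc7a11 (0.18) was -0.032 with library size scaling, -0.57 with 8 KC libraries, -0.65 with collagen libraries 4 and 5 and -0.035 to 0.48 without a library. Nfe2l2 (-0.03) was 0.15 with 2D libraries 4 to 6 or collagen libraries 4 and 5 and -0.10 to 0.031 without a library. Gclc (-0.02) was 0.051 with 8 KC libraries, 0.046 with collagen libraries 4 and 5, 0.23 with 2D libraries 4 to 6 and -0.11 to 0.046 without a library. For 2D against Matrigel, Gclc was 0.0024 with DESeq2, 0.24 with 2D libraries 4 to 6 and -0.10 to 0.051 without a library, Nfe2l2 (0.19) was -0.065 with library size scaling and -0.066 with 2D libraries 1 to 3, and Gsr (-0.02) was 0.25 with 2D libraries 4 to 6 and -0.12 to 0.033 without a library. For 2D against day 7, Nfe2l2 (0.18) was -0.074 with 2D libraries 1 to 3. For Matrigel against collagen, Slc7a11 (-0.11) was 0.93 with collagen libraries 1 to 3 and -0.31 to 0.21 without a library.

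The replicate numbers did not pair the libraries: deviations of same-numbered libraries correlated at -0.12 to 0.19 over 23 pairs, 2 of them over 0.1, and in 4 pairs the own number was the best match. With the replicate block, members called were 2 for Matrigel, 7 for day 7, 4 for KPC, 5 between batches, and 8, 2 and 1 for 2D against day 7, day 13 and Matrigel. Of all genes 1560, 6088, 2437, 4804, 6072, 5694 and 5320 were called with the block, in that order. Slc7a11 in Matrigel was 0.35 with it.

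Library size scaling moved the median log2 fold change of all genes by 0.12 for KPC, -0.14 between batches and -0.15, -0.20 and -0.26 for 2D against day 7, day 13 and Matrigel. The share of called genes that were higher went from 51.3% to 68.6% for Matrigel, 48.0% to 67.9% for KPC, 51.6% to 35.2% between batches, and from 51.6% to 37.5%, 53.1% to 31.9% and 52.2% to 23.3% for 2D in that order. With 7 to 46 counts a library for Hmox1 and 6 to 83 for Nqo1, small differences in them were not detectable at this depth.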
